A study of Homo sapiens with 18 samples.

Results

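The vacuolar protein sorting (VPS) genes take their name from genes found in yeast mutants that misrouted enzymes meant for the vacuole, the yeast equivalent of the lysosome. They were chosen by symbol, VPS followed by a number and at most 1 letter, among probe sets annotated to a single gene. Where a symbol had several probe sets, the brightest by mean over all arrays was selected. The rule found 36 probe sets for 33 genes, of 18377 genes measured in the same way, and left out 3 dimmer probe sets, of VPS52 and VPS53. VPS16 was not among them because its probe set also carries the symbol PTPRA, and a second VPS36 probe set shared with PAIP2B was likewise not used. VPS9D1 falls outside the symbol rule. The choice of this gene group, and of VPS4B and VPS50 as its markers, was made with earlier results of these data known, so the values of those genes below are a description.

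The cells were A549, an established human non-small cell lung cancer line, profiled on 18 Affymetrix whole-transcript arrays. There were 6 groups of 3 biological replicates. The siControl arm received a control siRNA, and the siPKCiz arm received siRNA against the atypical protein kinases C PKCiota and PKCzeta. Each arm was either left untreated or given a 1 h pulse of 250 pM TGFβ and collected at 8 h or 24 h. All groups shared the transfection, growth in 10% serum and serum starvation, with 0.2% serum in the medium after the ligand, and the labels of the untreated arrays carried no time. Because every group is a transfected bulk culture of 1 line, the measurements concern RNA only, and fewer cells of a type and less RNA per cell cannot be told apart.

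VPS proteins work as complexes that move membrane and cargo through endosomes. The ESCRT complexes sort ubiquitinated receptors into multivesicular bodies for degradation, retromer and retriever rescue receptors from that fate, HOPS and CORVET tether endosomes and lysosomes before fusion, and GARP and EARP tether vesicles returning to the Golgi or to recycling endosomes. VPS13 proteins carry lipids between organelles at membrane contacts. In epithelial cells, TGFβ receptors themselves pass through endosomes, where sorting determines whether they signal, recycle or are degraded.

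The intensities were deposited on a linear scale and log2 was taken before testing, so that every change below is a difference of log2 intensities with its standard error (±) from 1 limma fit over all genes and arrays. Adjusted p-values are Benjamini-Hochberg values over the 18377 genes of a comparison, and genes under 0.05 were called. Array median intensities lay between 156.1 and 160.7, and replicates of a group correlated at 0.992 to 0.998 across genes. PRKCI, the gene of PKCiota, fell by 2.24 ± 0.0523 on average over the 3 conditions in siPKCiz (limma adjusted p = 1.98e-15), to between 17.4% and 23.3% of the same-numbered siControl array. PRKCZ, the gene of PKCzeta, fell by 1.07 ± 0.140 (limma adjusted p = 3.43e-05), but unevenly: it stood at 68.2% to 91.4% of siControl in replicate 1, at 35.7% to 40.04% in replicate 2 and at 33.1% to 37.3% in replicate 3. The siControl arrays of replicate 1 were themselves low for PRKCZ, at 265, 309 and 302, where those of replicates 2 and 3 lay at 398 to 490. In siPKCiz PRKCZ was 206 to 254 in replicate 1. In replicates 2 and 3 it was 142 to 189, around the array medians. Epithelial markers (5 of 5 measured) were led by KRT8 at a median log2 intensity of 12.93. Leukocyte (4 of 4) and endothelial (3 of 3) markers had median log2 intensities between 5.65 and 6.72.

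All 33 VPS genes lay above the median of all probe sets in 18 of 18 arrays. Their mean log2 intensities over the arrays ran from 7.56 for VPS37D to 12.42 for VPS35; probe sets differ in brightness, so these values do not rank the genes by RNA. The distance between the highest and the lowest array of a gene had a median of 0.54 log2 units. It was 0.27 for VPS29, a retromer subunit, 0.87 for VPS4B and 1.19 for VPS54. The map of VPS genes by array shows that the steadiest and the most variable members include subunits of the same complexes.

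**Figure D1:**
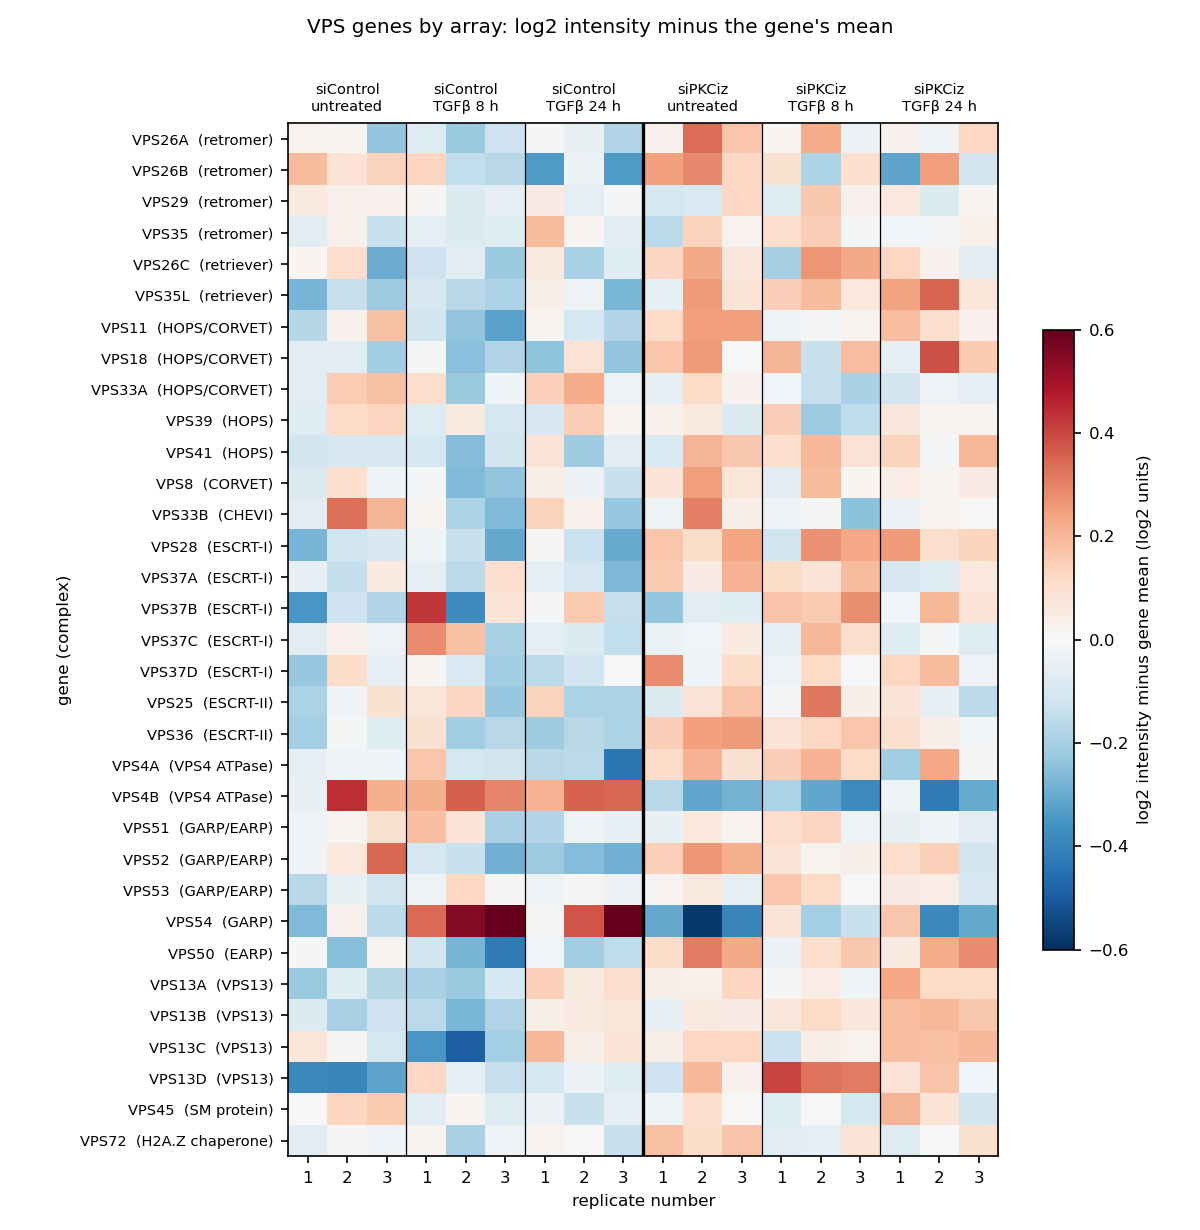
Log2 intensity of each of the 33 VPS genes (vertical axis, with its complex) in each of the 18 arrays (horizontal axis, by group and replicate number) minus the gene's mean over all arrays, as colour capped at 0.6 log2 units in either direction. VPS54 varied most, over 1.19 log2 units, and VPS29 least, over 0.27.

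Silencing of the atypical PKCs was accompanied by higher RNA of many VPS genes and lower RNA of VPS4B and VPS54. Averaged over the 3 conditions, 15 of 33 were called higher (45.5%, against 11.8% of all genes) and 2 were called lower (6.06%, against 8.17%). Together these were 17 of 33 (51.5%), where 19.9% of all genes were called in either direction. The median change of the members was 0.15 log2 units and that of all genes -0.01. Among the 10302 genes at least as bright as the dimmest member, 18.6% were called higher and 10.3% lower, with a median of 0.05. Most of the changes were small, since the largest rise was 1.25-fold and the largest fall 1.44-fold.

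The direction was the same in each condition for most members. In siPKCiz, 23 of 33 had a higher mean than siControl without ligand, at 8 h and at 24 h (69.7%, against 27.4% of all genes). The share among genes as bright as the members is not given here. Only VPS4B, VPS54 and VPS33A were lower in all 3 conditions, against 26.4% of all genes, and 7 were mixed. In no member did the 9 siControl arrays and the 9 siPKCiz arrays separate without overlap, which 1.45% of all genes did.

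Fewer members passed in single conditions, where 3 arrays face 3. Without ligand 3 of 33 were called (VPS13D and VPS36 higher, VPS4B lower; 3.58% of all genes), and the 3 arrays of each arm did not overlap in 14 of 33 (24.2% of all genes). At 8 h 6 of 33 were called (VPS50, VPS13B, VPS13C and VPS13D higher, VPS4B and VPS54 lower; 5.41% of all genes), with 13 not overlapping (24.1% of all genes). At 24 h VPS4B alone was called lower (3.19% of all genes), with 9 of 33 not overlapping (17.8% of all genes). Of the 10302 genes at least as bright as the dimmest member, 5.43% were called without ligand, 8.1% at 8 h and 4.84% at 24 h. With only the arrays of the conditions compared in the fit, none of the 3 kept its call without ligand, and at 8 h VPS4B and VPS54 did.

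These counts depended on the replicates. Without replicate 1, in which PRKCZ was least reduced relative to siControl, 18 VPS genes were called in the mean of the 3 conditions. Without replicate 2 there were 3 (VPS4B, VPS13D and VPS18), and without replicate 3 there were 4 (VPS4B, VPS13D, VPS35L and VPS52). The share of all genes called moved too, to 31.4%, 4.55% and 4.56%. In single conditions the counts without replicate 1 were 5 without ligand, 12 at 8 h and 6 at 24 h, and without replicate 2 or without replicate 3 they were 0 in each condition. The shares of all genes called in these single-condition settings are not given here, so the counts are not shown to be particular to VPS genes. The part of PRKCZ silencing in these differences was not tested. The summed intensity of the fibroblast markers LUM, DCN and PDGFRA (3 of 3 measured) also differed between the arms. It was 292.4 to 316.3 in untreated siControl and 390.6 to 428.5 in untreated siPKCiz. At 8 h the arms overlapped, with 284.8 to 354.1 in siControl and 334.5 to 449.8 in siPKCiz, and at 24 h the sum was 530.8 to 560.6 and 635.9 to 722.4. Median log2 intensities were 7.95 for LUM, 5.99 for DCN and 6.70 for PDGFRA. The epithelial sum lay at 12054 to 12371 in siControl and at 13673 to 15269 in siPKCiz at 8 h, without overlap, and the arms overlapped without ligand (12656 to 14213 and 13759 to 14491) and at 24 h (9854 to 12101 and 11132 to 12438). The part of either marker list in the result was not tested.

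**Figure D2:**
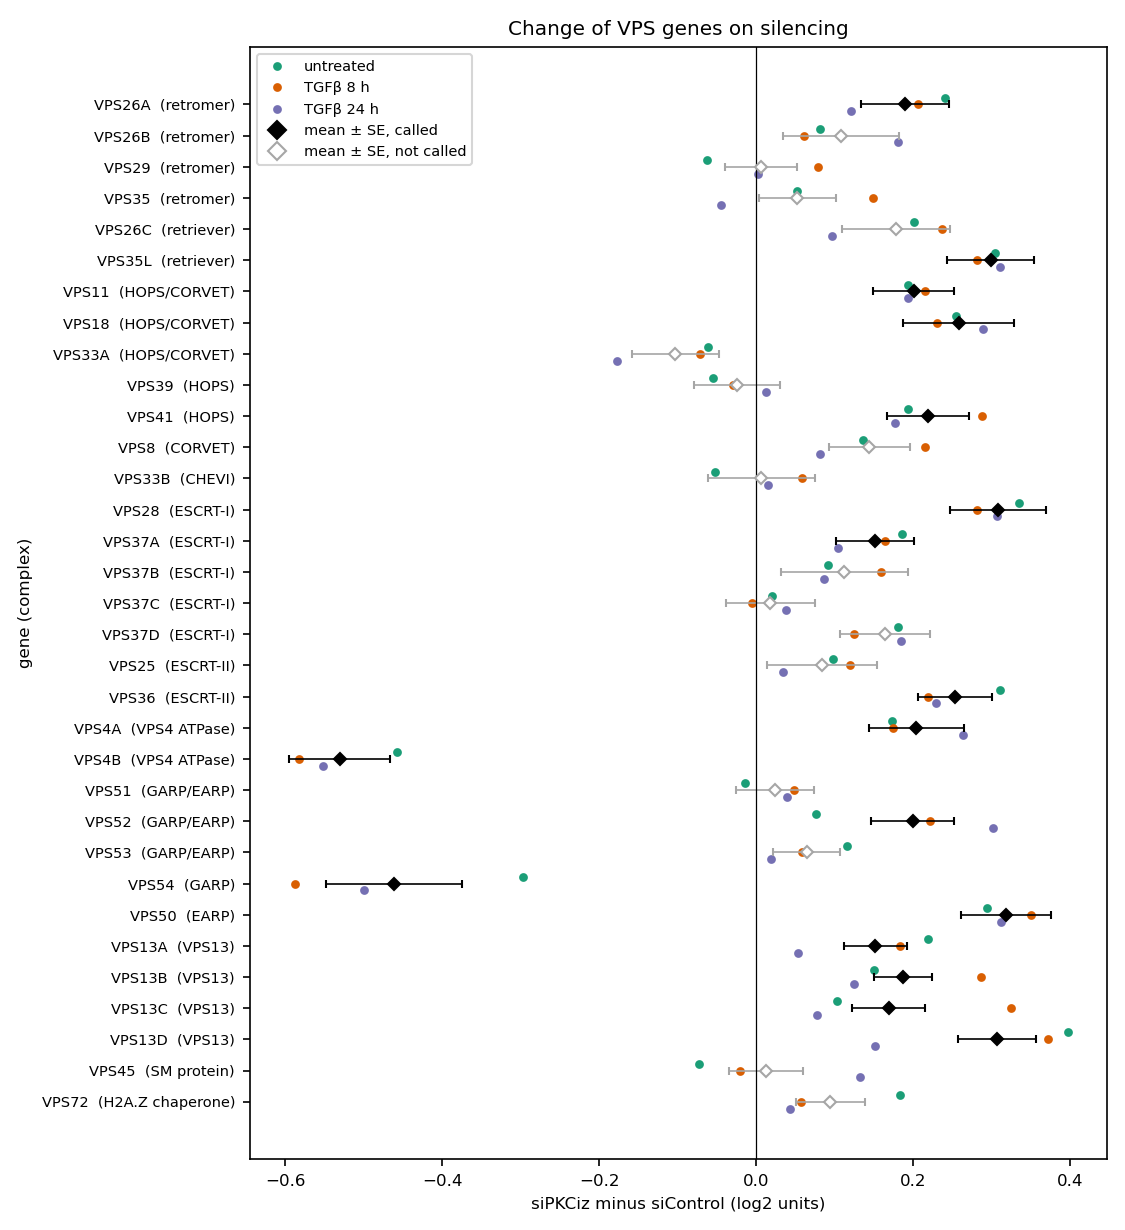
Change of each VPS gene in siPKCiz against siControl (horizontal axis, log2 units; vertical axis, gene and complex), with small points for each of the 3 conditions and diamonds for their mean with its standard error, filled where called. VPS4B at -0.53 and VPS54 at -0.46 lie left of 0, and the 15 genes called higher lie between 0.15 and 0.32.

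VPS4A and VPS4B encode the ATPases that pull ESCRT-III filaments apart and so recycle the ESCRT machinery, and the closely related genes differed in direction. VPS4B intensities were 713, 999.8 and 854 in siControl without ligand (replicates 1, 2 and 3), 854, 942 and 902 at 8 h and 850.1, 938 and 934 at 24 h. In siPKCiz they were 655, 593 and 605 without ligand, 645, 592 and 565 at 8 h and 722, 548 and 597 at 24 h. The siPKCiz arrays were lower in every condition with no overlap between the arms within a condition. Over all conditions the arms met at a single point, the replicate 1 arrays of untreated siControl and of siPKCiz at 24 h. VPS4B fell by 0.53 ± 0.0649 in the mean of the 3 conditions, which is 1.44-fold (limma adjusted p = 1.76e-05). By condition the change was -0.46 without ligand (limma adjusted p = 0.0292), -0.58 at 8 h (0.00614) and -0.55 at 24 h (0.0104). Between the arrays numbered 1, 2 and 3 it was -0.25, -0.73 and -0.61. The labels number the arrays without stating a pairing, so these differences are a description. Without replicate 2 the mean change was -0.43 (limma adjusted p = 0.00953) and without replicate 3 it was -0.49 (0.0162), both still called, whereas no call in a single condition remained.

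VPS4A went the other way by a smaller amount. Its intensities in siControl were 1279, 1302 and 1304 without ligand, 1489.7, 1233 and 1227 at 8 h and 1181, 1187 and 982 at 24 h. In siPKCiz they were 1436, 1534 and 1413, 1469.9, 1533 and 1439.8 and 1148, 1559 and 1332. The arms separated without ligand and overlapped at both times after it, with replicate 1 of siPKCiz low at 24 h. VPS4A rose by 0.20 ± 0.0604 in the mean of the 3 conditions (limma adjusted p = 0.0224). Its change was 0.04 in replicate 1, 0.31 in replicate 2 and 0.26 in replicate 3, and it was no longer called without replicate 2 or without replicate 3.

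VPS54 and VPS50 are the subunits that set GARP apart from EARP: VPS54 belongs to GARP, which acts at the trans-Golgi network, and VPS50 takes its place in EARP, which acts at recycling endosomes. VPS54 intensities in siControl were 592, 725 and 639 without ligand, 901, 1043 and 1086 at 8 h and 708, 923 and 1077 at 24 h. In siPKCiz they were 575, 476 and 540.0, 750.4, 618 and 648 and 796, 544 and 575. The siPKCiz arrays were lower than siControl without overlap when untreated and at 8 h, whereas at 24 h the replicate 1 array of siPKCiz was above that of siControl. VPS54 fell by 0.46 ± 0.0868 in the mean of the 3 conditions, 1.38-fold (limma adjusted p = 0.000971). The change was -0.30 without ligand, -0.59 at 8 h (limma adjusted p = 0.0297) and -0.50 at 24 h (0.0829). By array number it was -0.05, -0.71 and -0.63. Without replicate 1 the mean change was -0.67, without replicate 2 it was -0.34 (limma adjusted p = 0.124) and without replicate 3 it was -0.38 (0.089).

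VPS50 intensities in siControl were 524, 440.0 and 533 without ligand, 487, 433 and 391 at 8 h and 519.6, 455 and 474 at 24 h. In siPKCiz they were 567, 650.4 and 615, 514, 566 and 588 and 547, 613 and 639.8. Every siPKCiz array was above the siControl arrays of its own condition. VPS50 rose by 0.32 ± 0.0577, 1.25-fold (limma adjusted p = 0.000703). The change was 0.29 without ligand (limma adjusted p = 0.116), 0.35 at 8 h (0.0481) and 0.31 at 24 h (0.106). By array number it was 0.09, 0.46 and 0.41. Without replicate 1 the mean change was 0.43, without replicate 2 it was 0.25 (limma adjusted p = 0.0954) and without replicate 3 it was 0.27 (0.063), so replicates 2 and 3 were each needed for the call.

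**Figure D3:**
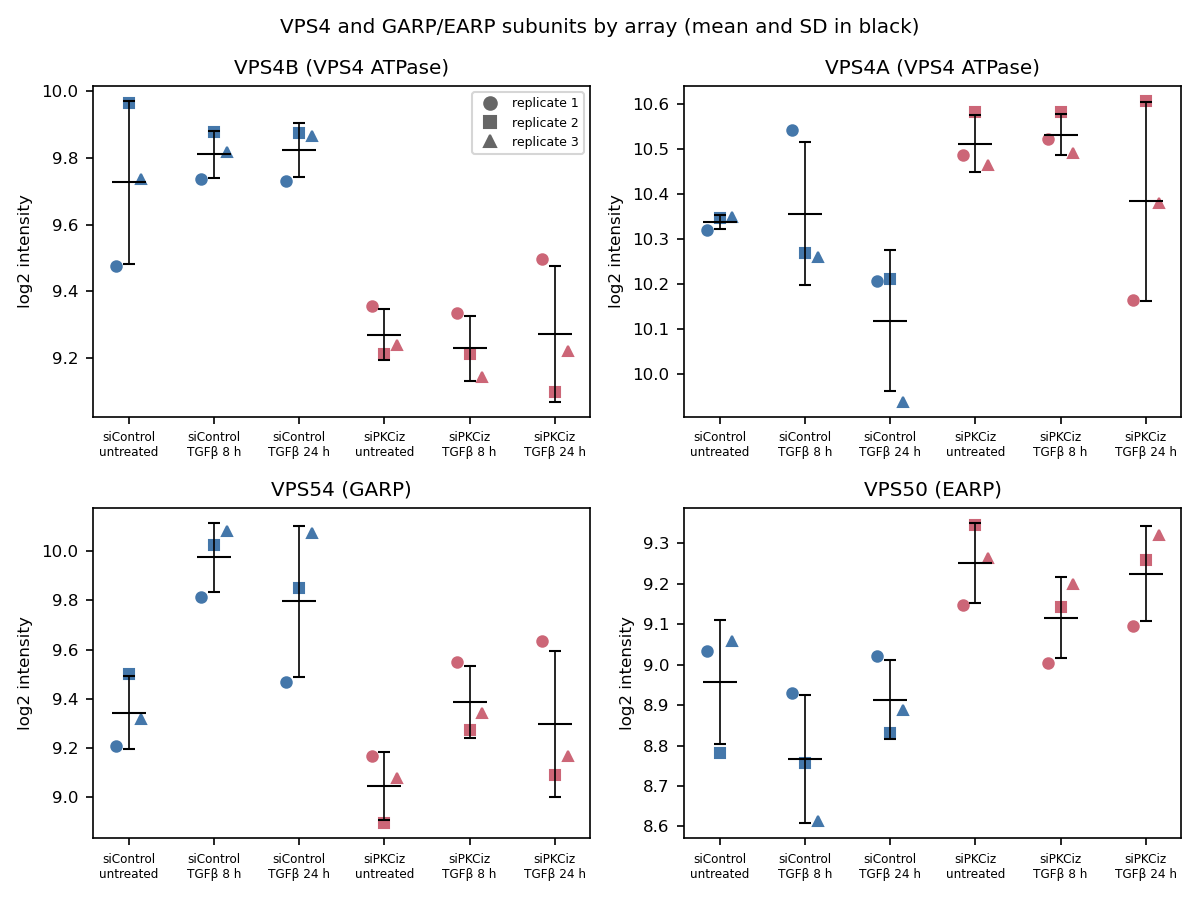
Log2 intensity (vertical axes) of VPS4B, VPS4A, VPS54 and VPS50 in the 6 groups (horizontal axes), with a point for each array, shaped by replicate number, and the mean and SD of 3 arrays in black. VPS4B and VPS54 sit lower in siPKCiz than in siControl, VPS4A and VPS50 higher, with mean changes of -0.53, -0.46, 0.20 and 0.32.

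The 250 bases before the annotated start of these 4 genes are shown because each pair supplies alternative subunits or paralogs whose RNA moved in opposite directions. The sequences are from RefSeq (GRCh38.p14), 5′ to 3′ on the gene's strand. Capitals mark matches, on either strand, to the GC box GGGCGG or to the ETS core CGGAAG; the E-box CACGTG and the CRE TGACGTCA were also searched and none of the 4 windows holds them. The windows are chr18:63422477-63422726 on the minus strand, chr16:69311100-69311349 on the plus strand, chr2:64019429-64019678 on the minus strand and chr7:93232116-93232365 on the plus strand.
VPS4B: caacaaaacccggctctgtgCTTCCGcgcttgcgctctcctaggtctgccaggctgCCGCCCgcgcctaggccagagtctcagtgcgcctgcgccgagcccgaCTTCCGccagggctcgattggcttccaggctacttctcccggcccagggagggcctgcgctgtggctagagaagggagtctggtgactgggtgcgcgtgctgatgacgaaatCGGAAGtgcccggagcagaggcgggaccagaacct
VPS4A: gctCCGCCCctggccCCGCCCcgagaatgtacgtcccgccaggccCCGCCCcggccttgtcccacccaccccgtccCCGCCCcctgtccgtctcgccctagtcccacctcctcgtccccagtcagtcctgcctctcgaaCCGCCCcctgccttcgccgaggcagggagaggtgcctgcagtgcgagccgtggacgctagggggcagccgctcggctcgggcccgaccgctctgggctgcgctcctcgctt
VPS54: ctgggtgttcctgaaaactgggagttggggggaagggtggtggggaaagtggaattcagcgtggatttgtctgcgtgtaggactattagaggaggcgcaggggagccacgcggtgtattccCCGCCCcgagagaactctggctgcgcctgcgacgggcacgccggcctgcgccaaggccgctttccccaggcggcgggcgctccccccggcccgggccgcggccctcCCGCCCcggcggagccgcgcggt
VPS50: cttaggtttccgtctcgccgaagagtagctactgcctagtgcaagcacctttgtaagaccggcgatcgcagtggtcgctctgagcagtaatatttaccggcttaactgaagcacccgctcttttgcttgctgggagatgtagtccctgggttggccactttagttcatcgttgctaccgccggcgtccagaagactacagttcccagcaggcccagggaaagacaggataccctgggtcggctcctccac

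The VPS4B window holds 3 ETS core matches and 1 GC box, the VPS4A window 5 GC boxes, the VPS54 window 2 GC boxes and the VPS50 window no match. Promoter windows were found for 23 of the 33 VPS genes. Of those 23, 14 held a GC box (60.9%, against 42.3% of 27305 promoters of the same length) and 10 held an ETS core (43.5%, against 16.8%). The E-box was in the windows of VPS11 and VPS37B (8.7%, against 6.49%), and the CRE in that of VPS37B (against 1.77%). The genes with an ETS core were VPS4B, VPS8, VPS11, VPS25, VPS29, VPS36, VPS39, VPS45, VPS51 and VPS52, of which VPS11, VPS36 and VPS52 were called higher and VPS4B lower on silencing. These matches are a description of letters in the window. The comparison promoters were not limited to genes expressed in these cells, so the higher shares are not shown to be a trait of VPS genes.

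Beyond VPS4, the VPS genes of ESCRT-I and ESCRT-II called on silencing were VPS28, VPS36 and VPS37A, each higher. ESCRT-I and ESCRT-II recognise ubiquitinated cargo and start the budding that ESCRT-III completes. With VPS4A and VPS4B they make 9 members, of which 4 were called higher (VPS28, VPS36, VPS37A and VPS4A) and 1 lower (VPS4B). Of all genes, 11.8% were called higher and 8.17% lower. Among the 10302 genes at least as bright as the dimmest member these shares were 18.6% and 10.3%, which holds for the complexes below too. Single complexes hold few genes, so counts by complex here and below are a description. VPS28, an ESCRT-I core subunit, had intensities of 952, 1064 and 1082 in siControl without ligand, 1136, 1054 and 936 at 8 h and 1161, 1057 and 937 at 24 h, and of 1296, 1247 and 1361, 1064, 1397 and 1356 and 1379.7, 1244 and 1269.6 in siPKCiz. The arms separated without ligand and at 24 h and overlapped at 8 h, where replicate 1 was low in siPKCiz. VPS28 rose by 0.31 ± 0.0615 (limma adjusted p = 0.00157).

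VPS36, the ESCRT-II subunit that binds ubiquitin and phosphoinositide, had intensities of 737, 845 and 807, 906, 734 and 756 and 732, 756 and 745 in siControl and of 941, 1006 and 1014, 899, 926 and 954 and 907, 872 and 838 in siPKCiz, in the same order of conditions. It was higher in siPKCiz without overlap when untreated and at 24 h, and at 8 h replicate 1 of siControl lay within the siPKCiz range. VPS36 rose by 0.25 ± 0.047 (limma adjusted p = 0.000858), and by 0.31 without ligand (0.0405). VPS37A, 1 of 4 interchangeable ESCRT-I subunits, rose by 0.15 ± 0.0497 (limma adjusted p = 0.0377). Its paralogs VPS37D (0.16, limma adjusted p = 0.0511), VPS37B (0.11) and VPS37C (0.02) and the ESCRT-II subunit VPS25 (0.08) were not called. None of VPS28, VPS36 and VPS37A was called without replicate 2 or without replicate 3. Without replicate 1 VPS37A alone of the 17 lost its call (0.17, limma adjusted p = 0.0543).

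All 4 VPS13 genes were called higher, beside 11.8% of all genes. These large proteins bridge organelles and carry lipids, and mutations in them cause neurological disease. VPS13D, which is needed for mitochondrial form and clearance, had intensities of 307, 305 and 323 in siControl without ligand, 438, 385 and 365 at 8 h and 374, 392 and 380.4 at 24 h. In siPKCiz it had 368, 460.4 and 409, 532, 503 and 498 and 425, 452 and 397. Every siPKCiz array exceeded the siControl arrays of its condition. VPS13D rose by 0.31 ± 0.0501, 1.24-fold (limma adjusted p = 0.000288), by 0.40 without ligand (0.0145) and by 0.37 at 8 h (0.0184). It stayed called without replicate 2 (0.26, limma adjusted p = 0.0447) and without replicate 3 (0.32, 0.0256).

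The other VPS13 genes moved less. VPS13B, linked to the Golgi, rose by 0.19 ± 0.0368 (limma adjusted p = 0.00139). Its intensities ran from 748 to 949 in siControl and from 872 to 1036 in siPKCiz. VPS13A, a contact-site protein of the endoplasmic reticulum, rose by 0.15 ± 0.0397 (limma adjusted p = 0.0108), and its intensities ran from 804 to 1038 in siControl and from 921 to 1104 in siPKCiz. VPS13C, found at contacts with late endosomes, rose by 0.17 ± 0.0471 (limma adjusted p = 0.016). At 8 h, where siControl was low, its difference was 0.33 (limma adjusted p = 0.0268). None of VPS13A, VPS13B and VPS13C was called without replicate 2 or without replicate 3.

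Retromer had 1 of 4 genes called and retriever 1 of 2, with VPS29 counted under retromer, beside 19.9% of all genes. Retromer is the trimer of VPS35, VPS29 and either VPS26A or VPS26B, and in retriever VPS35L and VPS26C take the corresponding places beside VPS29. VPS35L intensities in siControl were 1522, 1676 and 1589.7 without ligand, 1729, 1645 and 1624 at 8 h and 1891, 1809 and 1525 at 24 h. In siPKCiz they were 1780.2, 2205 and 1947, 2045, 2103 and 1929 and 2181, 2353 and 1939. The siPKCiz arrays were all higher than the siControl arrays of their condition, and VPS35L rose by 0.30 ± 0.0555 (limma adjusted p = 0.000862). It stayed called without replicate 3 but not without replicate 2. VPS26C changed by 0.18 in the same direction and was not called (limma adjusted p = 0.0755).

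In retromer, VPS26A had intensities of 2921, 2906 and 2446 in siControl without ligand, 2731, 2464 and 2638 at 8 h and 2858, 2787 and 2542 at 24 h, and of 2932, 3623 and 3229, 2897, 3357 and 2803 and 2927, 2837 and 3138 in siPKCiz. The arms separated without ligand and at 8 h and overlapped at 24 h. VPS26A rose by 0.19 ± 0.0557 (limma adjusted p = 0.0217), with a change of 0.04 in replicate 1 and 0.26 in replicates 2 and 3, and it was not called without replicate 2 or without replicate 3. Its paralog VPS26B had intensities of 1063, 989 and 1025, 1019, 840.2 and 829 and 735, 908 and 736 in siControl and of 1105, 1137 and 1016, 991, 818 and 994 and 747, 1109 and 863 in siPKCiz. These overlapped in every condition, and the change of 0.11 was not called. VPS35, the scaffold on which the complex is built, changed by 0.05 and VPS29 by 0.01. VPS35 intensities ran from 4992 to 6254 in siControl and from 4893 to 6069 in siPKCiz.

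HOPS and CORVET share a core of VPS11, VPS16, VPS18 and VPS33A, to which HOPS adds VPS39 and VPS41 and CORVET adds VPS8. VPS33B belongs to the related CHEVI complex. Of these 7 measured members 3 were called higher and none lower, beside 11.8% and 8.17% of all genes. VPS18 rose by 0.26 ± 0.0706 (limma adjusted p = 0.0142), VPS41 by 0.22 ± 0.0526 (0.00613) and VPS11 by 0.20 ± 0.0514 (0.00949). VPS18 intensities ran from 365 to 461 in siControl and from 394 to 565 in siPKCiz. VPS18 stayed called without replicate 2 but not without replicate 3, while VPS11 and VPS41 did not without replicate 2 or without replicate 3. VPS8 changed by 0.14 (limma adjusted p = 0.0562) and VPS39 by -0.02.

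VPS33A and VPS33B are paralogs of the SM family, which hold SNARE proteins in place for fusion. VPS33A intensities in siControl were 1002, 1165 and 1184, 1128, 897 and 1033 and 1158, 1225 and 1025, and in siPKCiz 1005, 1133 and 1068, 1036, 951 and 916 and 972, 1027 and 1009, without ligand, at 8 h and at 24 h. VPS33B intensities were 637, 837 and 767, 672, 585 and 555 and 734, 679 and 569.6 in siControl and 652, 820.5 and 685, 657, 669 and 562 and 651, 674 and 668 in siPKCiz. The arms overlapped in every condition for each gene. Neither was called, with changes of -0.10 for VPS33A and 0.01 for VPS33B. VPS45, the SM protein of early endosomes, changed by 0.01.

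GARP and EARP share VPS51, VPS52 and VPS53. VPS52 rose by 0.20 ± 0.0532 (limma adjusted p = 0.0123). Its intensities were 1186, 1258 and 1528 in siControl without ligand, 1122, 1096 and 986 at 8 h and 1035, 1005 and 984 at 24 h, and 1328, 1442 and 1394, 1278, 1219 and 1234 and 1296, 1327 and 1114 in siPKCiz. The arms overlapped without ligand, where replicate 3 of siControl was the highest VPS52 array of all, and separated after TGFβ. The other VPS52 probe sets, which hold identical values, gave a mean change of 0.19. VPS52 stayed called without replicate 3 but not without replicate 2. VPS51 changed by 0.02 and VPS53 by 0.06, and neither was called. VPS72, which despite its name encodes a nuclear chaperone of the histone H2A.Z, changed by 0.09 and was not called.

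Few VPS genes were called after TGFβ in siControl cells, at a share close to that of all genes. Of the 10302 genes at least as bright as the dimmest member, 17.1% were called at 8 h and 17.7% at 24 h. In siPKCiz these shares were 9.75% and 15.2%. At 8 h, 4 of 33 were called (VPS54 and VPS13D higher, VPS13C and VPS52 lower; 11.4% of all genes), and 6 of 33 did not overlap with untreated (25.3% of all genes). At 24 h, 3 of 33 were called (VPS13D and VPS13A higher, VPS52 lower; 12.3% of all genes), and 9 of 33 did not overlap (25.5% of all genes). The median change of the members was -0.04 at 8 h and -0.02 at 24 h, beside 0.00 and -0.01 for all genes. Both times share the untreated arrays, whose labels carry no collection time. In any change after TGFβ, in siControl or in siPKCiz, the ligand and the hours in culture therefore cannot be told apart. The summed intensity of the epithelial markers moved with TGFβ as well, from 12656 to 14213 in untreated siControl to 12054 to 12371 at 8 h and 9854 to 12101 at 24 h, while the fibroblast sum was 530.8 to 560.6 at 24 h against 292.4 to 316.3 untreated. The leukocyte sum was 352.4 to 416.8 untreated, 296.0 to 328.1 at 8 h and 297.6 to 332.03 at 24 h, and the endothelial sum overlapped throughout. KRT8 and KRT18 make up most of the epithelial sum, so it says little of CDH1 and EPCAM. The part of these markers in the TGFβ results was not tested. The counts rest on the replicates here too. At 8 h they were 6 without replicate 1, 0 without replicate 2 and 1 without replicate 3. At 24 h they were 4 without replicate 1, 1 without replicate 2 and 0 without replicate 3. The shares of all genes called with a replicate left out are not given here either. With only the arrays of the groups compared, VPS54 alone kept its call at 8 h, and VPS52 did at 24 h while VPS13A and VPS13D did not.

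VPS54 had the largest change after TGFβ in siControl. Its siControl log2 intensity was 9.34 ± 0.15 untreated (SD, n = 3), 9.98 ± 0.14 at 8 h (SD, n = 3) and 9.80 ± 0.31 at 24 h (SD, n = 3). It rose by 0.63 ± 0.15 at 8 h, 1.55-fold (limma adjusted p = 0.0085), with all 3 arrays above the untreated ones. At 24 h its change was 0.45 (limma adjusted p = 0.0569), with replicate 1 inside the untreated range. Without replicate 2 the 8 h change was 0.69 (limma adjusted p = 0.0866) and without replicate 3 it was 0.57 (0.144). On average VPS54 was highest in the siControl arrays at 8 h, the condition of its change of -0.59 on silencing.

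VPS52 and VPS13D shifted at both times in siControl. VPS52 fell by 0.30 ± 0.0921 at 8 h (limma adjusted p = 0.0387) and by 0.39 ± 0.0921 at 24 h (0.00829), with all treated arrays below the untreated ones. Without replicate 3, whose untreated array was the highest, the VPS52 changes were -0.14 at 8 h and -0.26 at 24 h. VPS13D rose by 0.34 ± 0.0868 at 8 h (limma adjusted p = 0.0135) and by 0.29 at 24 h (0.0321), again without overlap.

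VPS13C and VPS13A were called at a single time each. VPS13C intensities in siControl were 1741, 1662 and 1538 untreated, 1299, 1177 and 1436 at 8 h and 1892, 1699.9 and 1755 at 24 h. They dipped at 8 h, by 0.34 ± 0.0815 (limma adjusted p = 0.00898), and at 24 h the arrays overlapped the untreated ones. VPS13A intensities were 804, 894 and 833 untreated, 819.8, 804 and 871 at 8 h and 1038, 975 and 1011 at 24 h. All 3 arrays at 24 h exceeded the others, with a rise of 0.26 ± 0.0688 (limma adjusted p = 0.0171). The retromer subunit VPS26B changed by -0.38 at 24 h (limma adjusted p = 0.0621) and VPS13B by 0.19 (0.0622), neither called. VPS4B, the most affected by silencing, changed by -0.04 to 0.10 on TGFβ in the 2 arms and was called in neither.

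In siPKCiz cells the responses of VPS genes to TGFβ were few. At 8 h VPS13D was called higher (0.32, limma adjusted p = 0.0341; 6.48% of all genes called), with intensities rising from 368, 460.4 and 409 to 532, 503 and 498, and 8 of 33 did not overlap with untreated (25% of all genes). VPS13D was not called at 8 h without replicate 1, without replicate 2 or without replicate 3, nor with only the arrays compared (limma adjusted p = 0.0832). At 24 h no VPS gene was called by limma (10.7% of all genes), 3 had an unadjusted p under 0.05, and 7 of 33 did not overlap (31% of all genes). The siPKCiz changes of the siControl responders were 0.34 at 8 h and 0.25 at 24 h for VPS54, -0.16 at both times for VPS52 and -0.12 at 8 h for VPS13C. VPS13C intensities in siPKCiz were 1695, 1803 and 1806 untreated, 1512, 1700.0 and 1679 at 8 h and 1878, 1870.4 and 1892 at 24 h. VPS13A changed by 0.09 and VPS13D by 0.05 at 24 h.

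The difference of the TGFβ response between the arms was tested directly as an interaction, and it was called for no VPS gene at 8 h (0% of all genes) or at 24 h (0% of all genes). By limma, 0 of 33 members had even an unadjusted p under 0.05 at either time. The VPS54 interaction was -0.29 ± 0.213 at 8 h and -0.20 ± 0.213 at 24 h. That of VPS52 was 0.15 ± 0.130 and 0.23 ± 0.130, that of VPS13D -0.03 ± 0.123 and -0.25 ± 0.123, and that of VPS13C 0.22 ± 0.115 at 8 h. The smaller changes in siPKCiz are therefore not shown to differ from those in siControl.

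**Figure D4:**
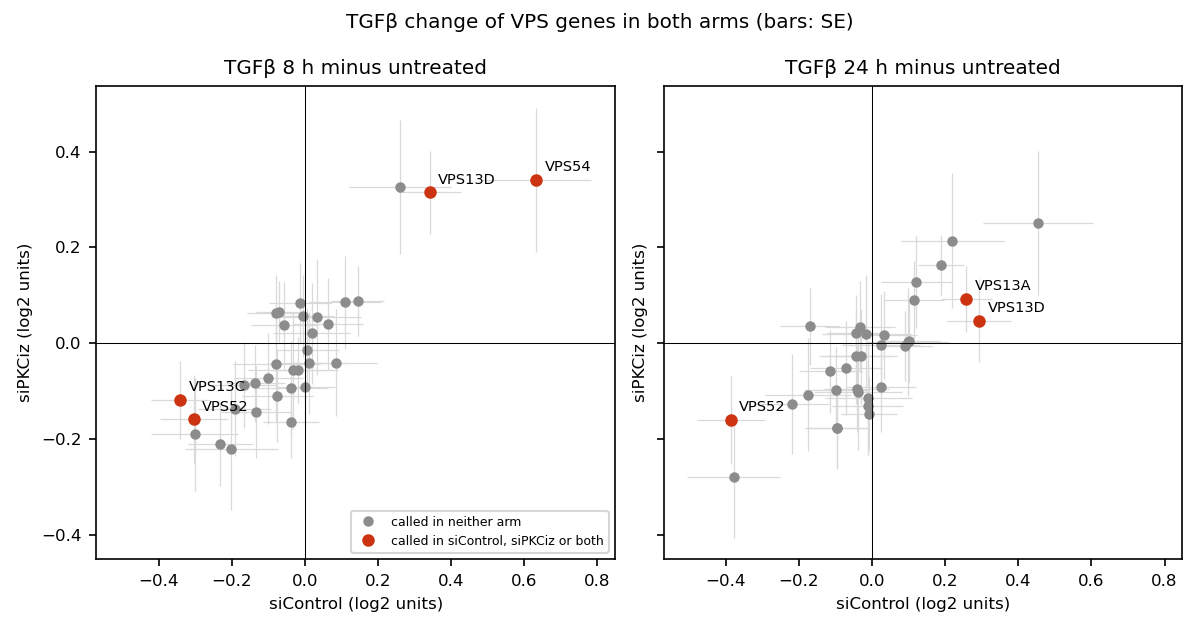
Change of each VPS gene on TGFβ in siControl (horizontal axis) against that in siPKCiz (vertical axis), in log2 units with standard errors, at 8 h and at 24 h; coloured points were called in at least 1 arm. VPS54 lies farthest to the right at 8 h, with 0.63 in siControl and 0.34 in siPKCiz.

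**Figure D5:**
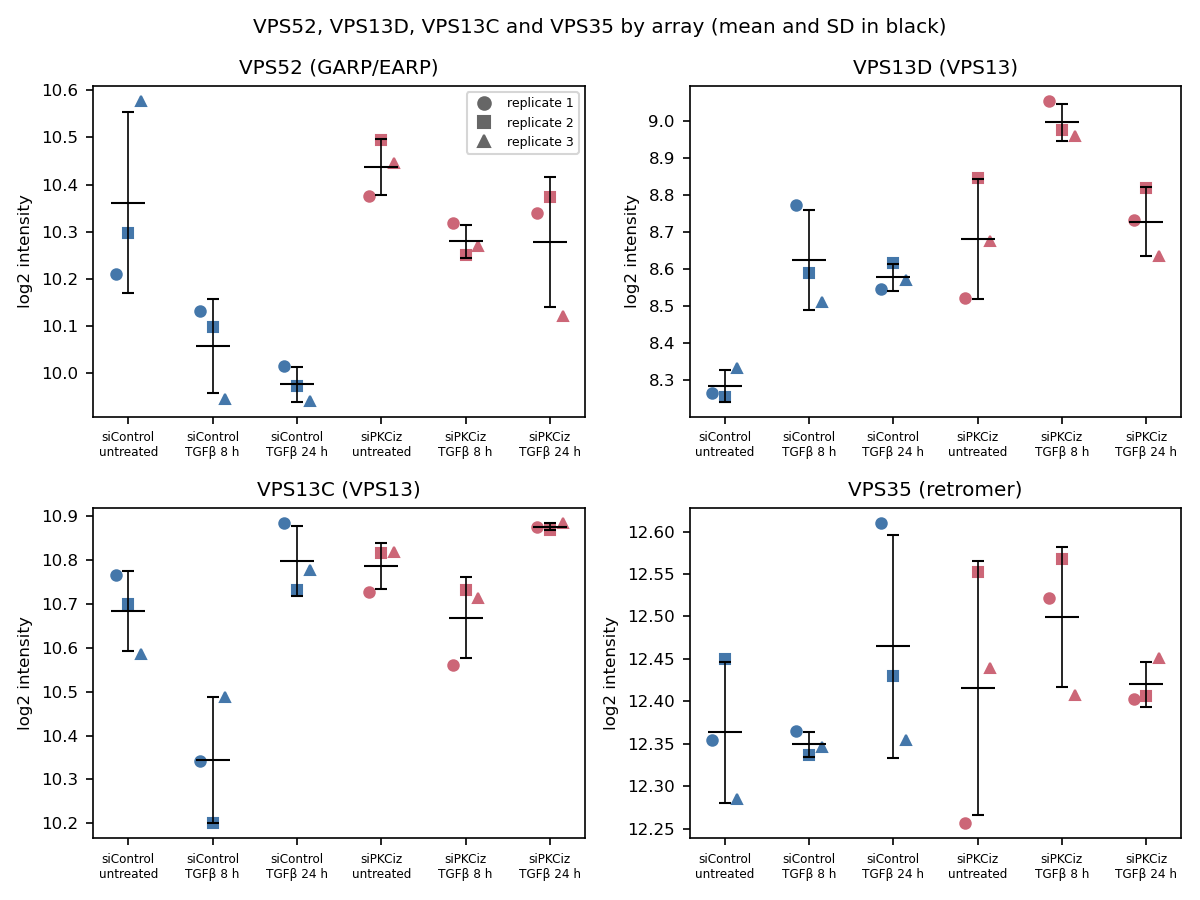
Log2 intensity (vertical axes) of VPS52, VPS13D, VPS13C and VPS35 in the 6 groups (horizontal axes), with a point for each array, shaped by replicate number, and the mean and SD of 3 arrays in black. In siControl, VPS52 falls by 0.30 and 0.39 and VPS13D rises by 0.34 and 0.29 at 8 h and 24 h, VPS13C dips by 0.34 at 8 h, and VPS35 stays between 12.26 and 12.61 in every array.

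VPS proteins act with many partners that carry other names, and 78 of 88 listed partner genes were measured. In the mean of the 3 conditions 24 of 78 were called higher and 7 lower on silencing (39.7%, beside 19.9% of all genes). Of the 10302 genes at least as bright as the dimmest VPS member, 28.9% were called, 18.6% higher and 10.3% lower. By list, the called genes were 3 higher of 11 sorting nexins and WASH subunits, 5 higher (COMMD2, COMMD4, COMMD7, COMMD9 and CCDC22) and 1 lower (the sorting nexin SNX17, the retriever cargo adaptor) of 12 retriever partners, 5 higher of 12 HOPS, CORVET and CHEVI partners, and 2 higher of 8 ESCRT-0, I and II genes. They were 3 higher and 2 lower (CHMP1B and CHMP4C) of 13 ESCRT-III genes, 2 higher and 1 lower of 8 GARP and EARP SNAREs and tethers, 3 higher and 1 lower of 7 class III PI3 kinase genes, and 1 higher and 2 lower of 7 sorting receptors. Of all genes, 11.8% were called higher and 8.17% lower. The lists are short, so their counts are a description. Without replicate 1 the partner count was 36, without replicate 2 it was 6 and without replicate 3 it was 5, in settings where the share of all genes called moved too.

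Among the partners, STX8, a SNARE of late endosome fusion, rose by 0.80 without ligand, 0.77 at 8 h and 0.88 at 24 h (highest limma adjusted p = 3.64e-05), and it stayed called without any 1 replicate number. EIPR1, of the GARP and EARP list, rose by 0.49, 0.46 and 0.35. Of the GARP and EARP subunits, VPS50 and VPS52 rose as well, VPS54 fell, and VPS51 and VPS53 were not called. VAMP7, a SNARE of late endosomes and lysosomes, rose by 0.38 at 8 h and 0.43 at 24 h, and CHMP6, an ESCRT-III subunit that binds VPS25, by 0.46 without ligand. TMEM87A fell by 0.61, 0.57 and 0.53. EIPR1, VAMP7, CHMP6 and TMEM87A were not called without replicate 2 or without replicate 3, and the 24 h rise of EIPR1 was also not called without replicate 1.

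On TGFβ, 6 of 78 partners were called higher and 2 lower in siControl at 8 h (10.3%, beside 11.4% of all genes), and 6 higher and 4 lower at 24 h (12.8%, beside 12.3%). In siPKCiz they were 3 higher and 1 lower at 8 h (5.13%, beside 6.48%), and 4 higher at 24 h (5.13%, beside 10.7%). These shares are near or below those of all genes, so the values that follow describe single genes. SORCS2, a receptor with the VPS10 domain, rose by 0.64 at 8 h and 1.12 at 24 h in siControl and by 0.93 at 24 h in siPKCiz. The 24 h rises of SORCS2 stayed called without any 1 replicate number, and the 8 h rise did not without replicate 2 or without replicate 3. CCDC93, a subunit of the complex that works with retriever, rose by 0.56 and 0.57 in siControl. LRP1, an endocytic receptor, rose by 0.45 at 24 h in siControl and by 0.44 at 8 h and 0.77 at 24 h in siPKCiz. MVB12B, an ESCRT-I subunit, rose by 0.48 and SNX27, a retromer adaptor, by 0.33 at 8 h in siControl, while VAMP8, an endosomal SNARE, fell by 0.46 at 24 h. In siPKCiz, TBC1D5 fell by 0.37 at 8 h and SNX27 rose by 0.30 at 24 h. CHMP4C rose by 0.32 at 8 h and 0.30 at 24 h in siPKCiz, and by 0.31 and 0.32 in siControl. SORL1 rose by 0.37 at 8 h in siPKCiz and fell by 0.42 at 24 h in siControl (limma adjusted p = 0.0124). Of the 28 partner changes that the naming rule took here and on silencing, 6 lost their call without replicate 1, 22 without replicate 2 and 19 without replicate 3.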

How the data were processed

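The deposited values are intensity on a linear scale, from 21.2 to 51230, made by the authors with RMA and Partek, per the submitters' processing notes; no version is stated there. RMA summarises probes into probe sets and equalises the arrays, so a shift shared by all genes is not visible. Log2 was taken of the deposited values because they are linear, and nothing else was normalised. Of 28869 probe sets, 19310 carried 1 gene symbol, 1752 several and 7807 none in the table used here. The brightest probe set stood for each gene, which left out 933.

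With limma 3.58.1 (R 4.3.3), a model of 6 group means was fitted to each of the 18377 genes on all 18 arrays (12 residual degrees of freedom, 18.1 with moderation), for 10 comparisons, and called at an adjusted p under 0.05. The script was tested on simulated data. The genes given array by array were VPS50, VPS4B, the called members with the largest changes, paralog pairs, and PRKCI and PRKCZ. Of the partner list up to 4 called genes per comparison whose groups did not overlap were named. The members, lists and alternatives were chosen with earlier results of these data known. The tests of partner genes under the alternatives were added after seeing the data. Replicates are biological per the labels, and p-values measure the spread between these arrays, whose number, 3 per group, limits the precision. The mean of the 3 conditions takes the arrays of an arm as independent. Where same-numbered arrays move together across conditions, its p-values may be too small. The alternatives were a replicate block, quantile normalization, median centring, no dim genes, trend and robust moderation, only the arrays compared, the mean of all probe sets, and each replicate number left out. Promoter sequences are from a RefSeq table, matched by symbol; those of 10 members were not matched.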

Additional observations from a re-analysis of the deposited data

How the results depend on the processing

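No called VPS change reversed direction under any alternative run. The replicate block, trend and robust moderation, no dim genes and only the arrays compared leave the estimated changes as they are. A reversal was therefore possible only under the other alternatives. With each replicate number left out in turn, the count of called VPS genes ranged from 3 to 18 in the mean of the 3 conditions, 0 to 5 without ligand, 0 to 12 at 8 h and 0 to 6 at 24 h on silencing. On TGFβ it ranged from 0 to 6 at 8 h and 0 to 4 at 24 h in siControl, and was 0 in siPKCiz. In the mean of the 3 conditions the share of all genes called moved too. These ranges are therefore not shown to be particular to VPS genes. Same-numbered deviations from the group means correlated at -0.33 to 0.21 over 21 pairs, and the own number was the best match in 7 of 42 cases. This check credits only shifts of the same sign, so it cannot show a replicate effect of opposite sign in the arms. Between the arms, the replicate 1 arrays correlated at 0.02 without ligand, -0.28 at 8 h and -0.33 at 24 h. Within siControl, the replicate 1 arrays of 8 h and untreated also correlated at -0.33, so negative values are not particular to the arms. PRKCZ in replicate 1 was lowest in siControl and highest in siPKCiz in every condition. With the replicate block, silencing called 17 members in the mean, 1 without ligand (VPS36 and VPS4B lost their call) and 3 at 8 h (VPS13C, VPS50 and VPS54 lost theirs), and TGFβ called 0 at 8 h in siPKCiz (VPS13D lost its call); the other counts stayed within 1.5 times. Quantile normalization called 1 at 24 h in siPKCiz. Without dim genes TGFβ called 6 at 24 h in siControl. With only the arrays of the groups compared, 1 was called at 8 h of TGFβ in siControl, and on silencing 0 without ligand and 2 at 8 h. This setting was not applied to the mean of the 3 conditions. The shares of all genes called with the replicate block and in the settings after it are not given here. Their counts are therefore not shown to be particular to VPS genes. Under the settings that could move the estimates, 20 to 24 members were higher in all 3 conditions. Members above 0 in the mean numbered 24 after quantile normalization and 29 as reported. The causes of these differences were not tested. Signal over background was not tested.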
